A study of Mus musculus with 10 samples.

Results

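A set of 10 heat shock chaperone genes was followed in the hippocampus of female P301S mice with and without dihydrotestosterone (DHT), out of 56884 gene identifiers in the count table. The 10 genes were chosen by name, through their Ensembl identifiers: Hspa1a, Hspa1b, Hspa8, Hsph1, Dnajb1, Hspb1, Hsp90aa1, Hsp90ab1, Hspd1 and Bag3. The choice was made with earlier results of these data known. All 10 had enough counts to be tested, among 17622 genes that passed edgeR's expression filter. Both groups were ovary-intact PS19 females (labelled hTau) that carry mutant human tau (P301S) driven by the mouse Prnp promoter, so no mouse without the transgene served as a control here. From 6 months of age, 5 females carried a subcutaneous implant filled with 10 mm of DHT and 5 a void implant that held none, and hippocampi were collected after 12 weeks, at 9 to 9.5 months. DHT is an androgen that aromatase cannot turn into estrogen, and the comparison asks how raised androgen changes the hippocampus of a female tauopathy model. Each mouse gave 1 library, named below by its group and replicate number.

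Heat shock chaperones hold unfolded or misfolded proteins in solution, refold them or pass them on to be degraded. HSP70 proteins bind exposed stretches of a client, J-domain proteins bring the client and start the HSP70 cycle, nucleotide exchange factors such as HSP110 and the BAG proteins end it, and HSP90 proteins finish the folding of kinases, steroid hormone receptors and other clients, tau among them. Under protein stress the factor HSF1 binds heat shock elements, which are inverted repeats of the letters GAA, and raises the inducible members many times over, while the constitutive members are abundant in neurons at rest. BAG3 joins HSP70 to the small heat shock protein HSPB8 and routes clients to autophagy.

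Promoter sequences are shown because the 10 genes are commonly grouped as one HSF1-driven set. The RefSeq (GRCm38.p6) promoter entries used here, which do not cover every chromosome, held 7 of the 10 genes. Hspa8, Hsp90aa1 and Hsp90ab1 had no entry among them. The 250 bases before each start were searched on both strands for 2 inverted units (GAANNTTC or TTCNNGAA, each its own reverse complement) and for 3 such units in an unbroken run, which contain the shorter pattern. At least 2 units were found for 5 of the 7 genes, namely Hspa1a, Hspa1b, Hsph1, Hspb1 and Hspd1, and in 12.8% of 32851 promoter entries. The 7 genes have 10 entries, and a gene was counted if any of its entries matched, whereas the share counts single entries. Only Hspd1 among the 7 had 3 or more units in a row, which 0.466% of the 32851 entries had. The run lies in the entry printed below, and the other Hspd1 entry held neither pattern. In the sequences below, written 5′ to 3′ on the gene's strand, capitals mark these letters. Hspa1a (chr17:34972157-34972406, minus strand), Hspa1b (chr17:34959239-34959488, minus strand) and Bag3 (chr7:128523333-128523582, plus strand) are given for the whole 250 bases.
Hspa1a: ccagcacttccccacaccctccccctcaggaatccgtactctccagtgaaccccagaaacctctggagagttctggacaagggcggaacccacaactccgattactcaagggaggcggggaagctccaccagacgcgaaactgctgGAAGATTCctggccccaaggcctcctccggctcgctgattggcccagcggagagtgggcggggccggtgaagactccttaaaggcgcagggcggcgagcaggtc
Hspa1b: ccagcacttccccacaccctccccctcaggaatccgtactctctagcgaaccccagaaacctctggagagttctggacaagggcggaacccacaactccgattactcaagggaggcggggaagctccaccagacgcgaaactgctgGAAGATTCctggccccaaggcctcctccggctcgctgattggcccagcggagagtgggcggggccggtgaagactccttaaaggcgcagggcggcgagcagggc
Bag3: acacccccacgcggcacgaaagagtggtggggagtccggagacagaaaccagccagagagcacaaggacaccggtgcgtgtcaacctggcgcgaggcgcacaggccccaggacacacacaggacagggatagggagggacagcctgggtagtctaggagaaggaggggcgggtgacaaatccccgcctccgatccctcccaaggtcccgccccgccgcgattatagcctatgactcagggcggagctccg
For Hspd1 (chr1:55088053-55088082, minus strand), Hspb1 (chr5:135887801-135887830, plus strand) and Hsph1 (chr5:149636351-149636380, minus strand), 30 bases around the letters are given.
Hspd1: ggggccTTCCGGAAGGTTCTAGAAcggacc
Hspb1: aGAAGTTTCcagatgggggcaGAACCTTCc
Hsph1: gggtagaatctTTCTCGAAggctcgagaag
The promoters of Hspa1a and Hspa1b were identical at 247 of 250 bases, and differed by C44T, T47C and T249G (Hspa1a first, positions counted from 1 at the 5′ end of the printed stretch). Neither pattern was found for Bag3 or Dnajb1 in this window. A match to these letters is a description of the sequence and not evidence that a factor binds there.

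Total counts ranged from 27188854 to 47113661 per library. The 6 hippocampal neuron markers were present in every library, and their summed level overlapped between groups (1081 to 1638 CPM with void, 1329 to 1701 with DHT, where CPM is the TMM-scaled count relative to library size). The 12 choroid plexus markers did not overlap in sum, with 352 to 3190 CPM in void-treated females and 3843 to 5516 in DHT-treated females, and void replicate 9 was the void library with the highest choroid plexus score. All void libraries carry lower library numbers (4 to 11) than the DHT libraries (18 to 23), so that order and treatment cannot be told apart.

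With DHT, Bag3 was the only one of the 10 genes that rose, by 26.1%, and no member fell. In edgeR (quasi-likelihood test, Benjamini-Hochberg adjustment over all genes tested), 1 of 10 members was higher at an adjusted p under 0.05, where 5.22% of all genes tested were higher, so the count itself does not set the members apart from other genes. None was lower, where 0.261% of all genes were, and the number of lower members was also 0 at an unadjusted p under 0.05 (4.22% of all genes) and 0 with DESeq2 (1.16%). At an unadjusted p the number of higher members was still 1, where 13.1% of all genes were higher. The other 9 members had log2 fold changes (log2FC) from -0.16 to -0.03 and adjusted p values from 0.415 to 0.885, and for all 9 the groups overlapped. Over all 10 members the median log2FC was -0.07, beside 0.01 over all genes, and 9 of the 10 values were below 0, as were 47.6% of all genes. None of the 10 reached a log2FC of 1 in either direction, a limit that 2.17% of genes passed upward and 0.0227% downward together with the adjusted p. In no member did every DHT-treated mouse lie below every void-treated mouse, as 0.88% of all genes did.

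**Figure D1:**
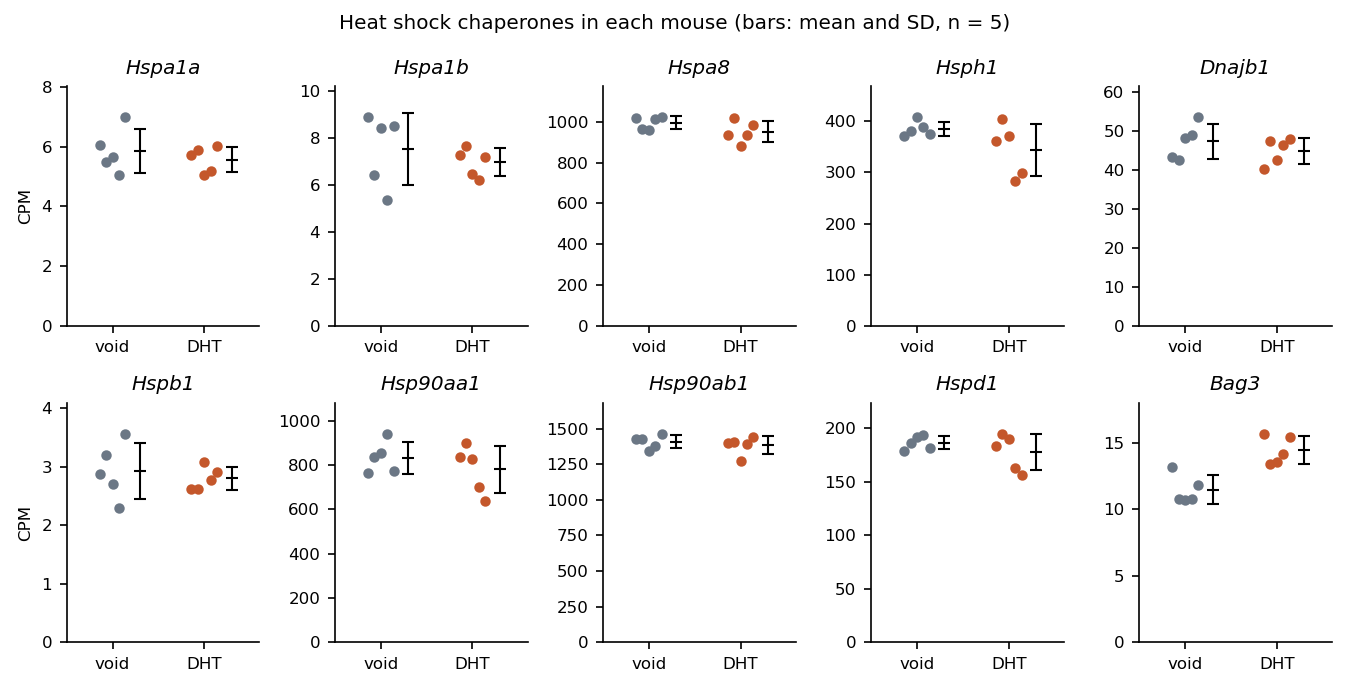
Level of each heat shock chaperone in CPM (vertical axes from 0) in the 5 void-treated (grey) and 5 DHT-treated (orange) females, 1 point per mouse, with mean and SD beside the points. For Bag3 every DHT-treated mouse lies above every void-treated mouse, while the groups overlap in the other 9 panels.

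Bag3 (ENSMUSG00000030847) encodes the co-chaperone that couples HSP70 to small heat shock proteins. It was at 13.2, 10.8, 10.7, 10.8 and 11.9 CPM in void replicates 10, 11, 4, 5 and 9, and at 15.7, 13.4, 13.5, 14.2 and 15.4 CPM in DHT replicates 1, 2, 3, 5 and 6. All 5 DHT-treated females were thus above all 5 void-treated females, but by a narrow margin, with void replicate 10 at 13.2 CPM just under DHT replicates 2 and 3. The groups had means of 11.5 ± 1.08 and 14.4 ± 1.05 CPM (SD, n = 5 each), resting on 337 to 646 counts per library. The log2FC was 0.33 (standard error, SE, 0.09, 95% interval 0.15 to 0.52, adjusted p = 0.0416 in edgeR), which ranked 879 among all genes by p. A two-sided exact permutation test of Bag3 alone gave p = 0.00794, the smallest that 5 mice against 5 allow. Complete separation upward was seen in 5.39% of all genes.

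The call for Bag3 was not stable, although its direction was. DESeq2 gave a log2FC of 0.31 with an adjusted p of 0.0121, and called 6.12% of all genes higher. In edgeR, with 1 mouse left out, it passed in 2 of 10 fits, those without void replicate 10 (adjusted p = 0.0347) and without DHT replicate 2 (0.0431). Without void replicates 11, 4, 5 and 9 the adjusted p was 0.163, 0.113, 0.0851 and 0.0549. Without DHT replicates 1, 3, 5 and 6 it was 0.174, 0.0770, 0.108 and 0.0845. Across these 10 fits the log2FC stayed between 0.27 and 0.39. Microglia markers were also higher with DHT. Of 8 markers, 8 had a positive log2FC, where 47.6% of all genes were below 0. The test called 5 of them higher, beside 5.22% of all genes. Their summed level was 419 to 490 CPM with void and 592 to 870 with DHT. Whether these markers vary with Bag3 between mice of a group was not tested. With the microglia score as a covariate the log2FC of Bag3 was 0.04 (adjusted p = 0.99998 in edgeR), and with the choroid plexus score it was 0.25 (adjusted p = 0.803). Both scores differ between the groups, and in each of these fits 0 genes of the whole table passed. The part of these cells in the change of Bag3 was not tested, and in bulk tissue more cells of a type and more RNA per cell cannot be told apart.

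**Figure D2:**
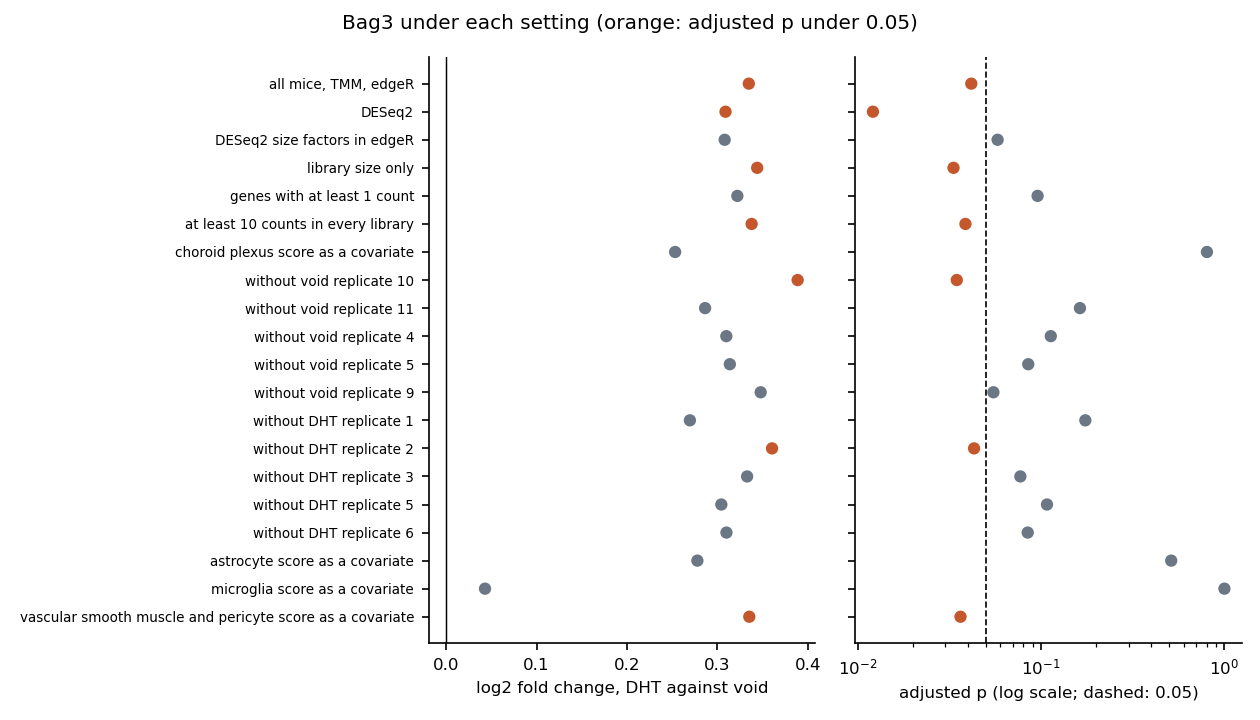
Log2FC of Bag3 (left) and its adjusted p (right, log scale) with all mice and under each alternative setting, orange where the adjusted p is under 0.05. The fold change lies between 0.04 and 0.39 and is positive in every setting shown, while the adjusted p crosses 0.05 in both directions.

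The inducible HSP70 genes Hspa1a and Hspa1b, the usual readout of an HSF1 response, were low in every mouse. Hspa1a (ENSMUSG00000091971) was at 6.05, 5.48, 5.67, 5.05 and 6.98 CPM in void replicates 10, 11, 4, 5 and 9, and at 5.71, 5.87, 5.05, 5.18 and 6.01 CPM in DHT replicates 1, 2, 3, 5 and 6. Hspa1b (ENSMUSG00000090877) was at 8.89, 6.44, 8.46, 5.37 and 8.53 CPM in the same void order and at 7.30, 7.65, 6.49, 6.22 and 7.21 CPM in the same DHT order. For both genes the DHT-treated females lay inside or barely outside the range of the void-treated females, in which replicate 5 was the lowest. Neither gene passed the test, with log2FC values of -0.07 (SE 0.11, adjusted p = 0.824) for Hspa1a and -0.11 (SE 0.14, adjusted p = 0.769) for Hspa1b in edgeR. The 95% intervals ran from -19.2% to 12.2% and from -25.2% to 14.4%.

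These genes encode near-identical proteins, and the counting could have divided or dropped their reads. In the GENCODE M21 transcripts, 47.1% of the 100-base windows of Hspa1a occur unchanged in Hspa1b, and 49.9% of those of Hspa1b occur in Hspa1a. Summed, they were at 13.4 ± 2.15 CPM with void and 12.5 ± 0.992 CPM with DHT (SD, n = 5 each), a log2FC of -0.09 (SE 0.11, adjusted p = 0.754 in edgeR). Within the libraries the sum was 0.0133 of the Hspa8 count with void and 0.0132 with DHT, as geometric means. The log2 ratio differed by -0.014 (two-sided exact permutation test, p = 0.913, and 0.913 after adjustment over 3 ratios).

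Hspa8 encodes HSC70, the constitutive HSP70 of neurons, which among other tasks uncoats clathrin vesicles. It ranged from 959 to 1022 CPM in void-treated females and from 883 to 1017 CPM in DHT-treated females, and 3 of the 5 DHT-treated mice were below every void-treated mouse. The log2FC was -0.07 (SE 0.05, adjusted p = 0.601 in edgeR), and the 95% interval ran from -11.9% to 3.4%. Of its 100-base windows, 63.4% recur in transcripts of other genes, most of them in Gm15459, so its counts depend on how shared reads were handled. Dnajb1, the HSP40 partner that is induced together with HSP70, ranged from 42.6 to 53.4 CPM with void and from 40.2 to 47.8 CPM with DHT. Its log2FC was -0.08 (SE 0.08, adjusted p = 0.702).

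Hsph1, Hsp90aa1 and Hspd1 spread more between the DHT-treated females than between the void-treated females. Hsph1 (ENSMUSG00000029657), the HSP110 nucleotide exchange factor, was at 371, 381, 408, 388 and 376 CPM in void replicates 10, 11, 4, 5 and 9. In DHT replicates 1, 2, 3, 5 and 6 it was at 361, 404, 371, 283 and 300 CPM. DHT replicates 5 and 6 were thus far below all other mice, and the SD was 14.3 CPM with void and 50.9 with DHT (n = 5 each). The log2FC was -0.16 (SE 0.09, adjusted p = 0.415 in edgeR), the most negative of the 10 members, and the 95% interval ran from -22.0% to 2.5%.

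Hsp90aa1 (ENSMUSG00000021270), the stress-inducible cytosolic HSP90, was at 764, 839, 853, 942 and 772 CPM in void replicates 10, 11, 4, 5 and 9 and at 837, 899, 828, 702 and 639 CPM in DHT replicates 1, 2, 3, 5 and 6. The 2 lowest values were again those of DHT replicates 5 and 6. Hspd1 (ENSMUSG00000025980), the mitochondrial HSP60, was at 179, 187, 192, 194 and 182 CPM in the void replicates and at 184, 195, 190, 163 and 157 CPM in the DHT replicates, in the same order. Neither passed the test, with log2FC values of -0.09 (adjusted p = 0.699) and -0.07 (adjusted p = 0.672).

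After each group's mean was subtracted, the log2 levels of these 3 genes ran together over the 10 libraries. Pearson's r was 0.95 for Hsp90aa1 with Hspd1, 0.94 for Hsph1 with Hspd1 and 0.84 for Hsph1 with Hsp90aa1, given as descriptions of the same 10 libraries. Among the other tested genes, the 5 whose pattern was most like that of Hsph1 were Cbx5 (r = 0.99), Tsga10 (0.98), Gm15879 (0.97), Amd1 (0.97) and Hspa4 (0.97), the last another HSP110 protein. Across all 45 pairs of members the median r was 0.09, from -0.58 to 0.95, and 24 pairs were positive. The 10 genes therefore did not vary as one block between mice. Hspa1a and Hspa1b, which share reads, ran together with r = 0.78, and Hspa8 and Hsp90ab1, both constitutive, with r = 0.74. Bag3 had r = 0.55 with Hspa1a and -0.58 with Hsp90aa1. The 5 genes most like the summed Hspa1a and Hspa1b were Zbtb40 (r = 0.96), Mlec (0.95), Cpm (0.95), Tbl2 (0.94) and Pfkfb3 (0.93). None of the genes named as most like Hsph1 or this sum passed the test with DHT, where 5.48% of all genes did.

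**Figure D3:**
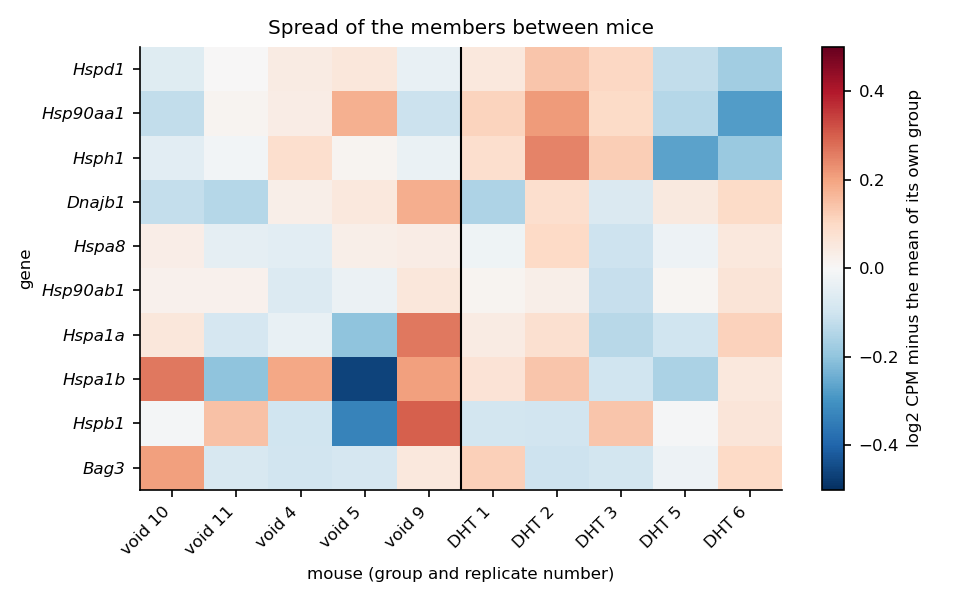
Log2 CPM of each member (rows) in each mouse (columns) minus the mean of that mouse's own group, from blue (below) to red (above), with the groups parted by a line. DHT replicates 5 and 6 are blue for Hspd1, Hsp90aa1 and Hsph1, and void replicate 5 is the deepest blue for Hspa1b.

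Hsp90ab1, the constitutive HSP90, changed least. It ranged from 1344 to 1463 CPM with void and from 1274 to 1443 CPM with DHT, and its log2FC was -0.03 (SE 0.05, adjusted p = 0.872 in edgeR, 95% interval -9.3% to 6.2%). The count of Hsp90aa1 was 0.591 of that of Hsp90ab1 with void and 0.561 with DHT (geometric means). This log2 ratio differed by -0.074 between groups, less than its SD of 0.16 with void and 0.24 with DHT (two-sided exact permutation test, p = 0.595, and 0.893 after adjustment over 3 ratios). The log2 ratio of Hsph1 to Hspa8 differed by -0.11 (p = 0.357 in the same exact test, and 0.893 after adjustment). It was lowest in DHT replicates 5 and 6, with 0.303 and 0.304 counts of Hsph1 per count of Hspa8, while the other 8 mice had 0.364 or more.

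Hspb1, the small heat shock protein HSP25, was the most thinly counted member with 72 to 147 counts per library. It ranged from 2.30 to 3.57 CPM with void and from 2.62 to 3.08 CPM with DHT, a log2FC of -0.06 (SE 0.13, adjusted p = 0.885 in edgeR). At this depth changes between -21.8% and 17.2% lie within its 95% interval. Of its 100-base windows, 42.7% also occur in the pseudogene Hsp25-ps1.

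Levels of different genes were compared as CPM per kilobase of exon, using the joined length of all M21 exons of a gene. This length was 7266 bases for Hsph1 and 4301 for Hspa8, whose longest coding transcripts have 3802 and 2394. For Hspd1 it was 2642 against 2423, and for Hsp90aa1 3931 against 3281. The order of Hspd1 and Hsph1 and the overlap of Hspa8 and Hsp90aa1 given below therefore depend on the length used. In void-treated females Hsp90ab1 was highest at 469 ± 15.7 CPM per kilobase, followed by Hspa8 at 232 ± 7.16 and Hsp90aa1 at 212 ± 18.3 (SD, n = 5 each), whose ranges overlapped. Hspd1 at 70.7 ± 2.39 and Hsph1 at 53.0 ± 1.97 did not overlap each other, and Dnajb1 followed at 14.7 ± 1.38. The lowest were Bag3 at 4.47 ± 0.420, Hspb1 at 2.84 ± 0.468, Hspa1b at 2.69 ± 0.552, and Hspa1a at 1.97 ± 0.246. The ranges of Hspb1, Hspa1b and Hspa1a overlapped. Reads shared with other genes may lower the values of Hspa1a, Hspa1b, Hspa8, Hspb1, Hsp90aa1 and Hspd1, of which between 26.9% and 63.4% of windows recur elsewhere, whereas no window of Bag3, Hsph1, Dnajb1 or Hsp90ab1 did.

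**Figure D4:**
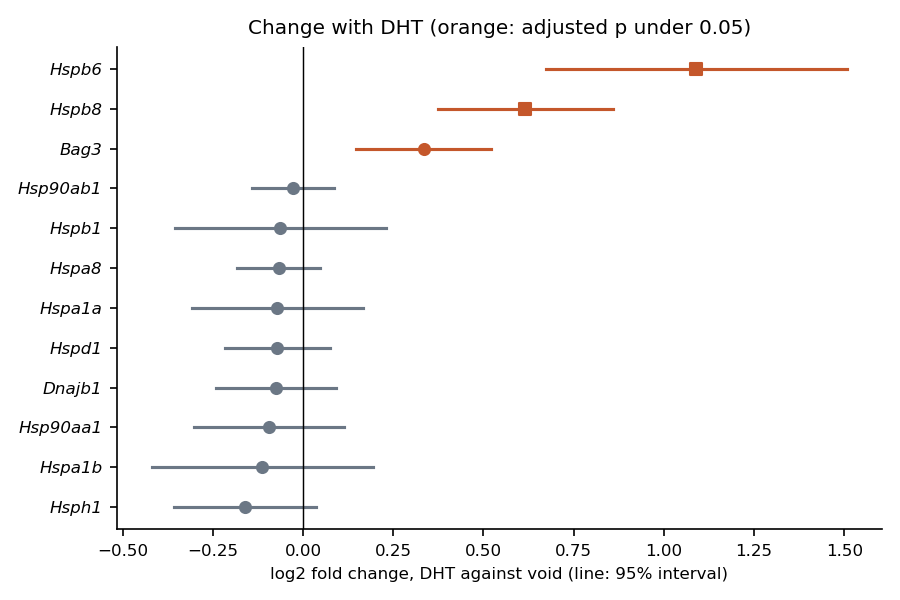
Log2FC of the 10 members (circles) and of Hspb6 and Hspb8 (squares) with 95% intervals, DHT against void, orange where the adjusted p is under 0.05. Only Hspb6, Hspb8 and Bag3 have intervals that lie wholly above 0.

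Beyond the 10 genes, 86 other chaperone genes in 8 lists were examined, of which 83 could be tested. These lists too were drawn up with earlier results of these data known. In edgeR 2 of the 83 (2.41%) rose and 0 fell, where 5.22% of all genes tested were higher and 0.261% lower. At an unadjusted p under 0.05, 5 were higher (6.02%, beside 13.1% of all genes) and 3 lower (3.61%, beside 4.22%), and the median log2FC was -0.02. DESeq2 called 3 higher (3.61%, beside 6.12% of all genes), the third being Sil1, and 1 lower (1.2%, beside 1.16%), Hspa12a, a distant HSP70 relative. These shares were near or below those of all genes, so the counts do not set the chaperones apart. The 2 genes that rose, Hspb8 and Hspb6, belong to the list of other small heat shock proteins, in which 6 of 9 genes were tested and 5 had a positive value, with a median log2FC of 0.43.

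Hspb8 (ENSMUSG00000041548), the small heat shock protein that BAG3 binds, was at 12.4, 12.7, 15.1, 14.4 and 15.9 CPM in void replicates 10, 11, 4, 5 and 9. It was at 26.3, 18.04, 23.4, 21.2 and 19.3 CPM in DHT replicates 1, 2, 3, 5 and 6, so every DHT-treated mouse was above every void-treated mouse. The log2FC was 0.62 (SE 0.11, adjusted p = 0.0106 in edgeR), and with each mouse left out in turn it stayed between 0.50 and 0.68 and passed in 10 of 10 fits. Hspb6, a small heat shock protein of muscle and glia that can also bind BAG3, rose more. It was at 2.69, 3.51, 2.37, 3.96 and 3.69 CPM in the void replicates and at 7.79, 4.37, 6.74, 7.30 and 8.31 CPM in the DHT replicates, in the same order. The groups did not overlap, and DHT replicate 2 was nearest to the void-treated mice. The log2FC was 1.09 (SE 0.19, adjusted p = 0.00992 in edgeR), and it too passed in 10 of 10 fits with a mouse left out. Within groups, Bag3 had r = 0.04 with Hspb8 and 0.25 with Hspb6 over 10 libraries, as a description.

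Some glial markers were also higher with DHT. The astrocyte gene Gfap rose by 1.18 on the log2 scale (adjusted p = 0.00761 in edgeR) and was the 1 of 6 astrocyte markers that passed, while the summed level of the 6 overlapped between groups (5728 to 8058 CPM with void, 6565 to 8312 with DHT). With the astrocyte score as a covariate the log2FC values were 0.44 for Hspb8, 0.82 for Hspb6 and 0.28 for Bag3. With the microglia score they were 0.30, 0.82 and 0.04, and with the choroid plexus score 0.40, 1.21 and 0.25, and none passed in these fits, which called between 0 and 1 gene of the whole table. Markers of vascular smooth muscle and pericytes, cells rich in small heat shock proteins, gave a median log2FC of -0.07 over 5 genes. Their summed level overlapped between groups (135 to 215 CPM with void, 144 to 217 with DHT). A covariate that differs little between groups can remove little of a difference with DHT. With the vascular score as a covariate Hspb6, Hspb8 and Bag3 passed in edgeR (adjusted p values of 0.00762, 0.0111 and 0.0363). In that fit, which was added after seeing the data, 1060 genes of the whole table were higher. The fits with the astrocyte and microglia scores were added in the same way. The part of each cell type in these changes was not tested.

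**Figure D5:**
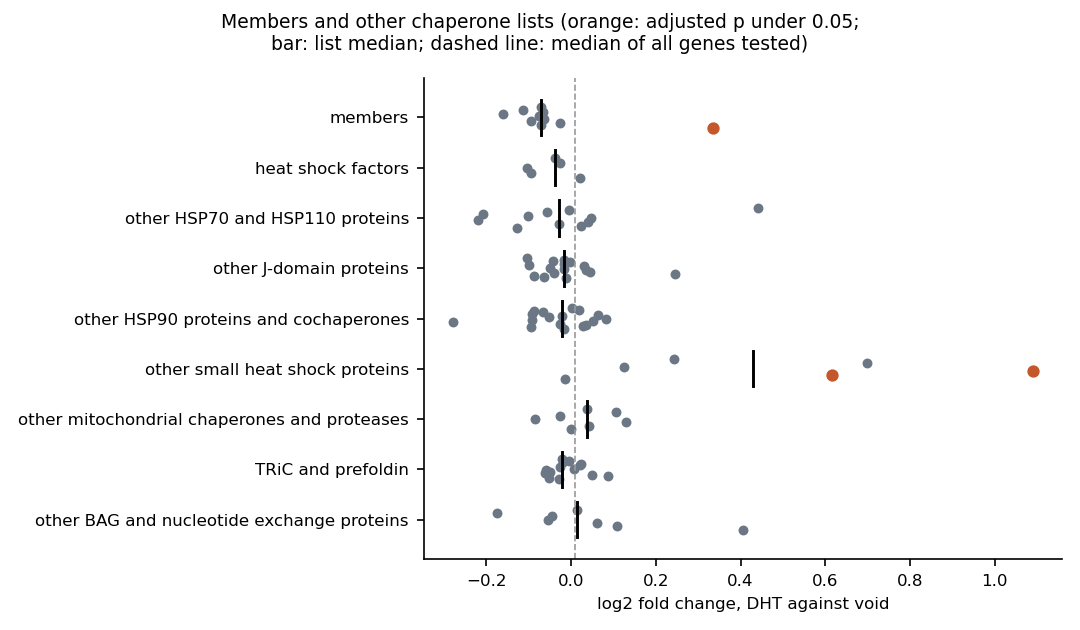
Log2FC with DHT (horizontal axis) of each tested gene in the members and the 8 other chaperone lists, with the median of each list as a bar and that of all genes as a dashed line. The 3 orange points, with an adjusted p under 0.05, are Bag3 among the members and Hspb8 and Hspb6 among the small heat shock proteins.

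The remaining 7 lists had median log2FC values from -0.04 to 0.04, and the genes that passed in edgeR were all in the small heat shock protein list. Hsf1, the factor that drives the heat shock response, was at 22.2 ± 2.42 CPM with void and 21.6 ± 2.93 CPM with DHT (SD, n = 5 each), a log2FC of -0.04 (adjusted p = 0.910 in edgeR). Hsf4 had the lowest p of the heat shock factors, with a log2FC of -0.10 (adjusted p = 0.832). The lowest p among other HSP70 proteins was that of Hspa12a (-0.22, adjusted p = 0.0844, and 0.0433 without DHT replicate 2), among J-domain proteins that of Dnajc3, a chaperone of the endoplasmic reticulum (0.25, adjusted p = 0.283), and among HSP90 cochaperones that of Chordc1 (-0.28, adjusted p = 0.270). Sil1, a nucleotide exchange factor of the endoplasmic reticulum, had a log2FC of 0.41 (adjusted p = 0.0691, and 0.0389 without DHT replicate 2). Grpel1, which serves the mitochondrial HSP70, was at 0.11 (adjusted p = 0.369) and the chaperonin subunit Cct8 at -0.06.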

How the data were processed

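RNA-seq was measured in hippocampus of 10 mice, 1 library each. The authors deposited raw counts per gene, made by trimming with HTStream, aligning with STAR (2.7.10b) and counting. The study's methods name mm10 and the submitters' processing notes mm39 and GRCm39. The annotation release, strand setting and treatment of reads matching several genes are not given in the sources used here. Symbols came from GENCODE M21 (51948 of 56884 identifiers matched with the version dropped, 35 with the same version).

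From these counts, differences were fitted with edgeR 4.0.16 under R 4.3.3 (TMM scaling, filterByExpr, quasi-likelihood F test on 17622 genes, Benjamini-Hochberg adjustment). DESeq2 1.42.0 served as an alternative. A gene passed at an adjusted p under 0.05. The SE was taken as the size of the log2FC over the root of F. Scores are mean log2 CPM (prior count 2) of a marker list. Single values and log2 ratios of counts were compared with two-sided exact permutation tests in scipy 1.17.1. Both tools were first tested on simulated data. Members and lists were chosen with earlier results of these data known. From the other lists, up to 3 passing genes per direction, or the gene of lowest p, were named, with Hsf1 always. Of genes most like Hsph1 and summed Hspa1a and Hspa1b, 5 each were named. Counting error weighs most on the thinly counted genes, Hspb1, Hspb6, Hspa1a and Hspa1b.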

Additional observations from a re-analysis of the deposited data

How the results depend on the processing

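No paired analysis was made, because the sample labels give no litter and no pairing of void and DHT mice. The study states that littermates were randomized to treatment. Of the 10 members, 1 was higher with DHT in the analysis reported, and 0 were with DESeq2 size factors in edgeR, with every gene of at least 1 count tested (which raises the number of tests), with the log2 fold limit of 1 added, with a covariate for the choroid plexus score, and with one for the astrocyte or the microglia score, both chosen after seeing the data. With 1 mouse left out, between 0 and 1 were higher. No alternative made a member lower. Of the other chaperone genes, 0 were higher with the choroid plexus, astrocyte or microglia score, 1 with the fold limit and 5 at an unadjusted p. Lower were 1 with DESeq2 and 3 at an unadjusted p, and between 0 and 1 with a mouse left out. The covariate fits called at most 1 gene in the whole table except for that with the vascular score. The vascular score was also chosen after seeing the data. The causes of these differences between settings were not tested.

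Some signs reversed, mostly of values near 0, with Dnajc3 (0.25 as reported) an exception. With the astrocyte score the log2 fold change was 0.041 for Hspa1a, 0.087 for Hspa1b, 0.034 for Dnajb1, 0.095 for Hspb1, 0.075 for Hsf4 and 0.12 for Hsf1. With the microglia score it was 0.16 for Dnajb1, 0.33 for Hsf4, -0.038 for Dnajc3 and 0.018 for Cct8, and with the choroid plexus score 0.0065 for Hsp90aa1 and -0.013 for Dnajc3. With 1 mouse left out the range was -0.12 to 0.00052 for Hspa1a, -0.14 to 0.017 for Hspb1 and -0.12 to 0.013 for Hsf1, the highest value in each case without void replicate 9. The log2 ratio of Hsp90aa1 to Hsp90ab1 ranged from -0.13 to 0.011 (highest without DHT replicate 6) and that of summed Hspa1a and Hspa1b to Hspa8 from -0.11 to 0.034 (highest without void replicate 9). Of 382 values compared for single genes, 344 kept their direction and side of the threshold. Most of these genes did not pass as reported, so they had no pass to lose. In 19 values a pass was lost, all of them for Bag3, Hspb6 or Hspb8, the genes that passed as reported. A pass was gained in 4 values, and the direction reversed in 15.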

Other observations

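All 9 immediate early genes examined (Fos, Fosb, Junb, Egr1, Arc, Npas4, Nr4a1, Dusp1 and Ier2), which respond to neuronal activity and handling within the same short times as the inducible heat shock genes, had log2 fold changes below 0, as did 47.6% of all genes, with a median of -0.30. Of the 9, 0 passed in edgeR (adjusted p 0.430 to 0.869), 0 at an unadjusted p under 0.05 and 0 in DESeq2. Their summed level was 223 to 686 CPM with void and 271 to 516 CPM with DHT, so it overlapped and spread widely between mice. Fos ranged from 4.58 to 44.5 CPM among the void-treated females and from 6.97 to 31.9 CPM among the DHT-treated females (log2FC -0.38, adjusted p = 0.791 in edgeR).

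Dixon's criterion (critical value 0.71 for 5 mice) marked no mouse as an outlier in the 46 sets of values examined for the named genes and ratios, where chance alone gives about 2.3. The criterion looks for 1 value far from the rest, so 2 mice that lie low together mask each other. DHT replicates 5 and 6 lay together in this way for Hsph1 (283 and 300 CPM), and the criterion is no check on them.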
